A study of Mus musculus with 4 samples.

Results

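The forkhead (Fox) and SOX genes are 2 families of transcription factors, and their messenger RNA was compared here between endothelial cells (ECs) of the dura mater and of the brain. Members were chosen by symbol: Fox, a letter from a to s and a number, or Sox and a number. This gave 63 of the 23282 entries listed for each library, 44 Fox and 19 Sox genes. Brain ECs came from brain parenchyma and dura mater ECs from the outer membrane between skull and brain. All were from C57BL/6J mice at 8 weeks of age, with no other allele and no treatment named in the labels, and each tissue had 2 libraries. Both tissues were digested with enzymes, and CD31+ CD45- TER-119- cells were sorted by flow cytometry, the brain cells after an extra enrichment on CD31 magnetic beads. The 3′ ends of polyadenylated RNA were sequenced.

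Forkhead factors bind DNA through a winged-helix domain, and SOX factors bend DNA through a high mobility group domain. FoxO factors are held out of the nucleus when AKT phosphorylates them downstream of growth factor receptors, and Foxo1 restrains endothelial growth and metabolism. Foxf2, Foxq1 and Sox17 are known from studies of brain endothelium and its barrier, Foxc1 from the formation of meninges and mural cells, and the SoxF genes Sox7, Sox17 and Sox18 from arterial and lymphatic endothelium.

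The libraries held 13518973 to 16096203 counts, which makes 3 counts equal to 0.184 to 0.227 CPM, the count scaled to a common library size. Reads came from 3′ ends, so CPM was not divided by gene length. All 15 pan-endothelial markers were detected, with summed levels of 12325 and 15004 CPM in brain and 10173 and 13180 CPM in dura mater ECs. Dura mater library 2 stood apart in low counts: 881 symbols had 1 to 7 counts, against 2117 to 2436 in the others, and 9835 had at least 64 counts, against 6608 to 7281. Replicates of a tissue spread widely, with a common biological coefficient of variation of 1.39. Other markers moved with tissue. The summed level of 10 fibroblast markers was 7.52 and 51.5 CPM in brain and 370 and 375 CPM in dura mater ECs, with Fap at 0 throughout. Col1a1, Col1a2, Col3a1 and Dcn gave most of the sums in dura mater ECs, and Lum and Pdgfra had at most 4 counts in any library. Dpt, Mfap5 and Col6a3 were counted mainly in 1 dura mater library each. The 6 of 7 lymphatic markers found in the table summed to 123 and 145 against 367 and 438 CPM, with Prox1, Lyve1 and Mmrn1 at 0 in both brain libraries. The 7 erythroid markers summed to 18013 and 25692 against 1496 and 762 CPM. The 9 astrocyte markers summed to 52.4 and 80.1 against 437 and 179 CPM, with Aqp4 at 0 throughout, and the 9 Schwann cell markers to 2.69 and 0.151 against 155 and 239 CPM, with Pmp2 and Cdh19 at 0. Egr2, which is also in the list of the response to dissociation, gave most of the latter sums, with 0 counts in brain and 1068 and 3459 in dura mater ECs. Gja1 gave most of the astrocyte sums in dura mater ECs, with 743 and 103 counts in brain and 3641 and 2460 in dura mater ECs. Slc1a2 and Slc1a3 were also higher there, while S100b overlapped (9 and 949 against 0 and 294 counts). Gfap and Aldoc were counted almost only in dura mater library 1. Neuron markers (142 and 170 against 251 and 173 CPM) were slightly higher in dura mater ECs, and those of the oligodendrocyte lineage (102 and 5.29 against 163 and 58.5) and of bone and cartilage (148 and 105 against 166 and 135) overlapped. The summed level of the 12 mural cell markers overlapped, at 710 and 1178 against 1248 and 801 CPM, with Acta2 the most abundant. By gene, 9 had a positive log2 fold change and 3 (Acta2, Rgs5 and Des) a negative one, with a median of 1.41. In edgeR 0 were called, and 2 were higher at an unadjusted p under 0.05, beside 7.04% of all genes. These were Kcnj8 (0 and 0 against 468 and 410 counts) and Anpep (1 and 2 against 689 and 1627). The 19 genes of the response to tissue dissociation summed to 10173 and 9010 against 36738 and 39298 CPM. Of them, 5 were called higher in dura mater ECs by edgeR, beside 0.428% of all genes tested. The part of these markers in the results below was not tested.

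Of the 63 members, 41 had a count in some library (28 Fox and 13 Sox) and 22 were listed at 0 in all 4 libraries. At least 64 counts in some library were reached by 34 members, and in every library by 16. The filter on low counts passed 25 members (17 Fox and 8 Sox) into the test. Such a filter also passes a gene that is counted in 1 tissue alone, so counts over these 25 describe them and do not stand for all 63. Of the 25, 0 had an adjusted p under 0.05 in the quasi-likelihood test of edgeR, where 0.610% of the 9347 genes tested did. At an unadjusted p under 0.05, 4 of the 25 were lower in dura mater ECs (Foxq1, Foxc1, Sox13 and Sox17), beside 2.97% of all genes, and 0 were higher, beside 7.04%. DESeq2 called 2 members, Foxq1 and Sox13, both lower in dura mater ECs, where it called 8.63% of all genes and 2.03% as lower. The fit of limma-voom called 0 of the 25, beside 0.856% of all genes. The labels do not say that the libraries came from separate mice, so all p-values measure only the spread between these libraries, which may be technical. In RNA from pooled cells, fewer cells of a type and less RNA per cell cannot be told apart.

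**Figure D1:**
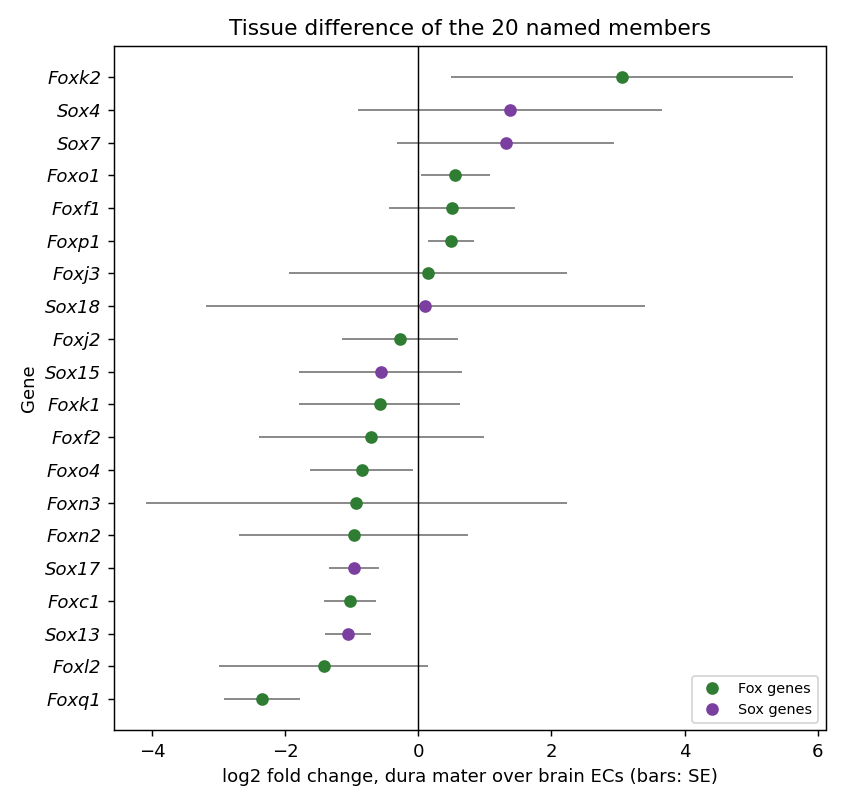
Log2 fold change of the 20 members named with values, dura mater over brain ECs (horizontal axis), with the standard error (SE) of the edgeR fit as bars, 1 row a gene, Fox genes in green and Sox genes in purple. The bars of Foxq1 (at −2.35), Sox13, Foxc1, Sox17 and Foxo4 stay below 0, and those of Foxk2, Foxo1 and Foxp1 above 0. Foxn3 and Sox18 have bars of more than 3 log2 units on each side.

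Levels of both libraries of a tissue lay above both of the other for 14 of the 25 tested members, beside 43.1% of all genes tested. Dura mater was the lower tissue for 8 of them, beside 16.9% of all genes, and the higher one for 6, beside 26.2%. Over the 25, the median log2 fold change of dura mater over brain was −0.57, and it was −0.0069 over all genes tested. Of the 25, 14 had a log2 fold change below 0, beside 50.2% of all genes. The medians were −0.58 for the Fox and −0.23 for the Sox genes. The 4 members with an unadjusted p under 0.05 were among the 6 most abundant, as the plot of all genes tested shows.

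**Figure D2:**
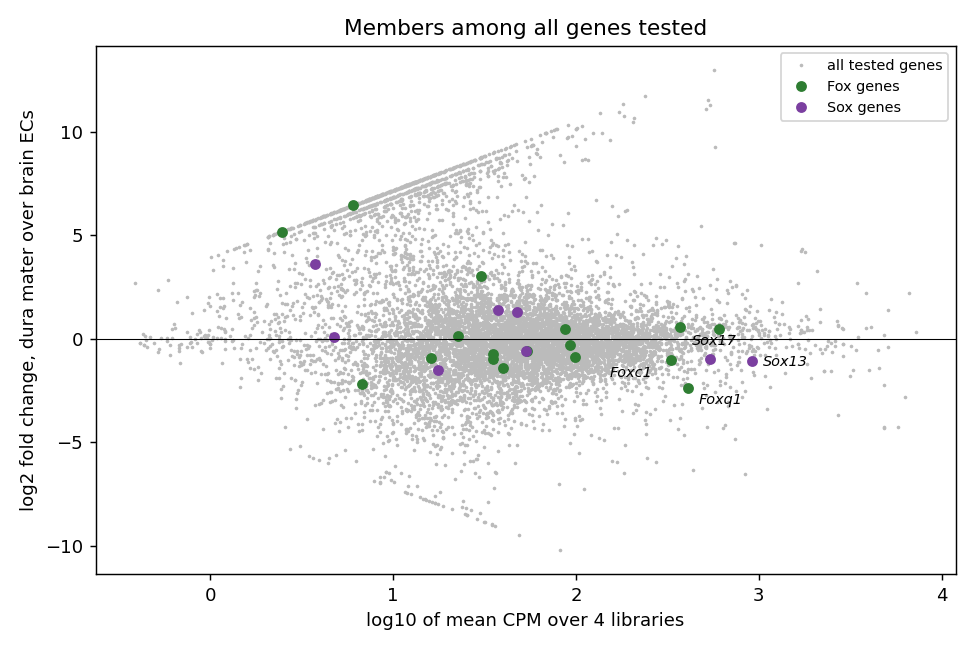
Log2 fold change of dura mater over brain ECs (vertical axis) against the log10 of the mean CPM over the 4 libraries (horizontal axis), with 1 grey point for each of the 9347 genes tested, Fox genes in green and Sox genes in purple. Foxq1, Foxc1, Sox17 and Sox13 lie to the right, at −2.35 to −0.97.

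Foxq1, Foxf2 and Foxc1 stand in a row on chromosome 13 (GRCm38). The start of Foxf2 (ENSMUSG00000038402.2, chr13:31625816-31631403, plus strand) is 69.7 kb after that of Foxq1 (ENSMUSG00000038415.10, chr13:31556134-31560976, plus strand), and that of Foxc1 (ENSMUSG00000050295.4, chr13:31806633-31812476, plus strand) 250 kb after it. Below are the 250 bases before the start sites of Foxf2 and Foxc1 (RefSeq, GRCm38.p6, plus strand), neighbours whose levels differed in how far the tissues overlapped. The Foxf2 window is chr13:31625566-31625815 and the Foxc1 window chr13:31806396-31806645. Capitals mark matches to the GC box GGGCGG, the ETS core GGAAG and the SOX core ACAAT, searched on both strands.
Foxf2: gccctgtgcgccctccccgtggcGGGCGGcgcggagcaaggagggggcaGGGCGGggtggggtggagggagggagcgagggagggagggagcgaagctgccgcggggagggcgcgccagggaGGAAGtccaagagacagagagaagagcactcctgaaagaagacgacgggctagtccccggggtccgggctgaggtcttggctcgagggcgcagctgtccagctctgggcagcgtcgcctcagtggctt
Foxc1: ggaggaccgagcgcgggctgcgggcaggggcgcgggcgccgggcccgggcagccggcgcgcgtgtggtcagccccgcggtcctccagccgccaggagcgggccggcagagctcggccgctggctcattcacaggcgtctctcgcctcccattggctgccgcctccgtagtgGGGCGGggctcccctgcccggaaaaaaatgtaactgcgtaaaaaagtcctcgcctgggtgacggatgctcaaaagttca
The Foxf2 window held 2 GC boxes and 1 ETS core, and the Foxc1 window held 1 GC box. Of 32851 promoter windows of this length, 32.7% held a GC box, 64.1% an ETS core and 27.7% a SOX core. Neither window held the SOX core, the TCF/LEF motif ATCAAAG (3.21% of all windows) or the forkhead motif GTAAACA (3.17%). A match describes the letters and is not a site of binding. The G and C content was 71.6% in the Foxf2 and 70.8% in the Foxc1 window.

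Foxq1 had the largest difference relative to its error among the members. Its counts were 14558 and 4856 in brain and 1876 and 2095 in dura mater ECs, or 1004 and 367 against 140 and 128 CPM. Both brain libraries lay above both dura mater libraries, and the brain pair was itself 2.74-fold apart, the dura mater pair 1.09-fold. The mean was 686 ± 451 CPM in brain and 134 ± 8.18 CPM in those of the dura mater (SD, n = 2 each), 5.11-fold lower in the latter. The log2 fold change was −2.35 ± 0.57 (SE), with an adjusted p of 0.245 in edgeR. Foxq1 passed the threshold with DESeq2 (adjusted p = 0.00159) and when brain library 2 was left out (−2.96, adjusted p = 1.6e-07 in edgeR, where 6.05% of all genes passed), and it did not when brain library 1 was left out (−1.50, adjusted p = 0.120). In all it passed under 7 of 14 alternatives.

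Foxc1, a factor of meningeal and mural cell development, had 6309 and 6035 counts in brain and 2714 and 3824 in dura mater ECs. The replicates were close together and the tissues did not overlap. The mean was 446 ± 14.8 CPM in brain and 218 ± 22.5 CPM in dura mater ECs, a log2 fold change of −1.03 ± 0.40 (SE, adjusted p = 0.466 in edgeR). Foxf2, which is also known from pericytes of the brain, was less abundant, with 918 and 318 counts in brain and 327 and 475 in dura mater ECs. One brain library was high and the other below both dura mater libraries, and the log2 fold change was −0.71 ± 1.69 (adjusted p = 1.00). Without brain library 1, its sign turned, to 0.10. The neighbours on either side of the cluster, Exoc2 (785 and 204 against 0 and 461 counts) and Gmds (0 and 562 against 0 and 368), overlapped between tissues.

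**Figure D3:**
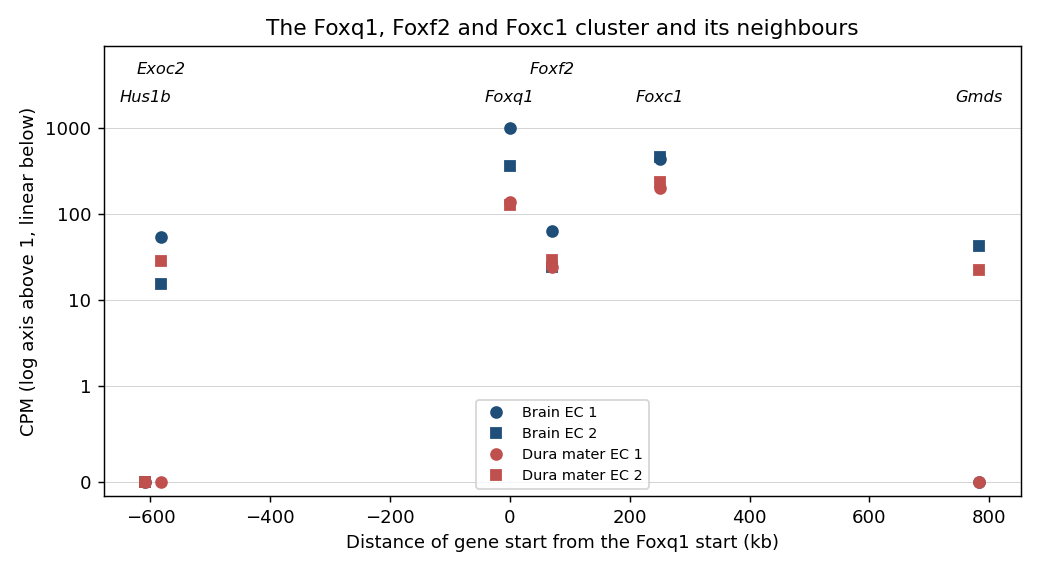
CPM of the genes around Foxq1 in each library (vertical axis), against the distance of each gene's start from the Foxq1 start in kb (horizontal axis), brain ECs in blue and dura mater ECs in red, library 1 as circles and library 2 as squares. Foxq1 and Foxc1 separate the tissues, and Foxf2, Exoc2 and Gmds do not.

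Foxf1, Foxc2 and Foxl1 form a second cluster, on chromosome 8. Foxf1, a factor of vascular development in the lung (chr8:121084386-121088144, plus strand), had 460 and 1491 counts in brain and 1635 and 1353 in dura mater ECs. The tissues overlapped, with a log2 fold change of 0.50 ± 0.95. Foxc2, which acts in lymphatic valves, starts 31.8 kb further on and had 143 counts in dura mater library 2 and 0 in the other libraries. Foxl1, at 43.6 kb, had at most 2 counts.

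Among the FoxO genes, Foxo1 (ENSMUSG00000044167.6, chr3:52268336-52353221, plus strand) was the most abundant. Its counts were 6160 and 2355 in brain and 6553 and 6487 in dura mater ECs. Brain library 2 was low, while brain library 1 fell between the dura mater libraries in CPM, so that the tissues overlapped. The means were 302 ± 175 and 443 ± 64.6 CPM, with a log2 fold change of 0.55 ± 0.52 (adjusted p = 0.952 in edgeR). This value ranged from 0.00091 without brain library 2 to 1.27 without brain library 1. Foxo4, a second target of AKT, had 1350 and 2133 counts in brain and 778 and 1348 in dura mater ECs. Its tissues did not overlap, and the log2 fold change of −0.85 ± 0.78 did not pass (adjusted p = 0.946). It ranged from −1.25 to −0.48 as single libraries were left out. Foxo6 had 83 counts in dura mater library 2 and at most 1 in the others. Foxo3, a widely expressed FoxO gene, was listed at 0 in all 4 libraries. The annotation used for counting is not given in the sources used here, so that this 0 may not be the level of its RNA. Summed over the FoxO genes, with Foxo3 at 0, the level was 518 and 339 CPM in brain and 547 and 485 CPM in dura mater ECs.

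Foxp1, a widely expressed repressor (chr6:98925338-99522721, minus strand), was the most abundant Fox gene in dura mater ECs. It had 8275 and 5809 counts in brain and 9319 and 11810 in dura mater ECs. Both dura mater libraries were above both brain libraries, at 709 ± 20.2 against 505 ± 93.2 CPM, with a log2 fold change of 0.49 ± 0.34 (adjusted p = 0.799 in edgeR), or 0.25 without brain library 2. Foxp2, known from neurons, had 284 and 49 counts in dura mater ECs and 0 in brain ECs. Foxp4 had 77 counts in dura mater library 2 and at most 2 elsewhere. Foxp3, which defines regulatory T cells, had 532 counts in dura mater library 1 and at most 1 elsewhere. The gene on its opposite strand, Ccdc22, overlaps 12.9% of its exon length and was listed with the same 4 counts, and the T cell markers Cd3e, Cd3g and Cd8a were at 0 throughout. Without a stated use of strand, the reads of the pair cannot be told apart.

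Of the other Fox genes, none passed the test in edgeR. Foxk1 and Foxk2 are regulators of metabolism and autophagy. Foxk1 had 1217 and 608 counts in brain and 594 and 695 in dura mater ECs, with a log2 fold change of −0.58 ± 1.21 that ranged from −0.13 without brain library 1 to −1.01 without brain library 2. Its tissues did not overlap, although they did under scaling by library size alone. Foxk2 had 182 and 1 counts against 419 and 1248, so that brain library 2 was almost empty beside brain library 1. Its log2 fold change of 3.06 ± 2.57 (adjusted p = 0.915) ranged from 2.01 to 7.93 as single libraries were left out. Foxj2 (2164 and 698 against 1252 and 1207 counts), Foxj3 (258 and 332 against 415 and 267) and Foxn2 (953 and 358 against 437 and 238) all overlapped between tissues. Foxn3, a checkpoint gene, had 217 and 363 counts in brain, and 0 and 361 in dura mater ECs. Foxl2, known from the ovary and the eyelid, had 773 and 836 counts in brain and 403 and 215 in dura mater ECs. Its tissues did not overlap, and the log2 fold change was −1.43 ± 1.57 (adjusted p = 0.994), or −2.27 without dura mater library 1.

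**Figure D4:**
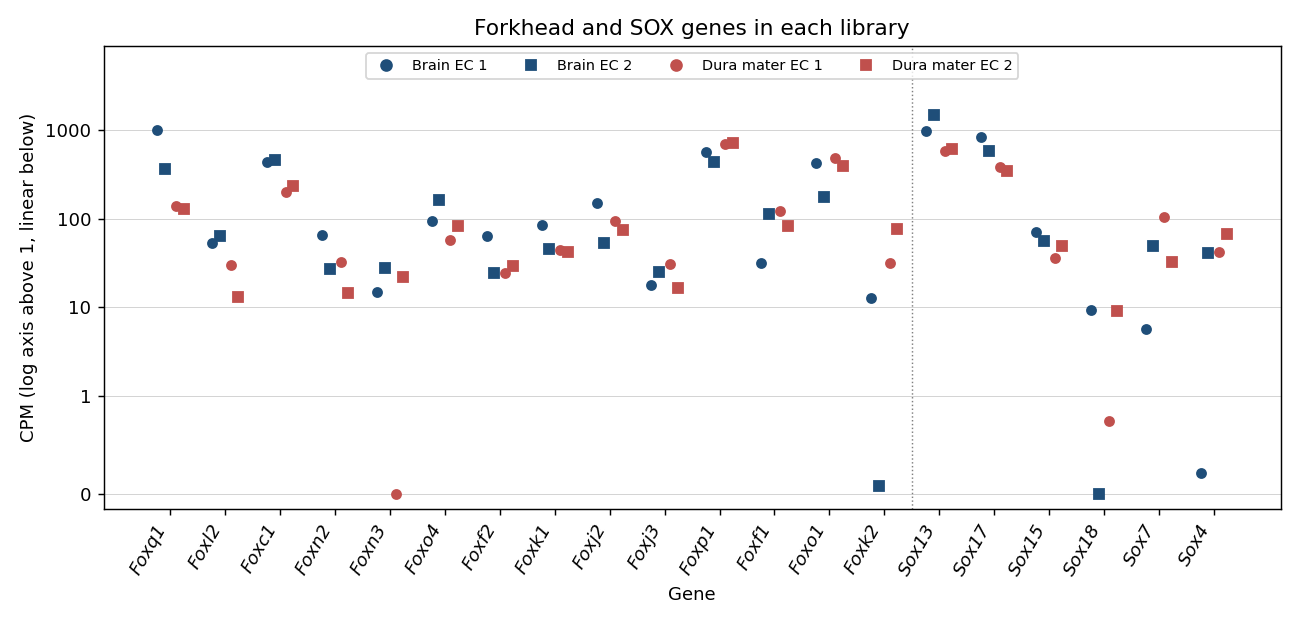
CPM of the 20 members named with values in each library (vertical axis, logarithmic above 1 and linear below), brain ECs in blue and dura mater ECs in red, library 1 as circles and library 2 as squares, Fox genes left of the dotted line and Sox genes right of it. The blue points of Foxq1, Foxc1, Sox13 and Sox17 lie above the red ones, while Foxk2, Foxn3, Sox18 and Sox4 have a library near 0 beside one of 9 CPM or more.

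Sox17 was the most abundant SoxF gene. Sox17 (ENSMUSG00000025902.13, chr1:4490931-4497354, minus strand), which acts in arterial identity, had 12270 and 7653 counts in brain and 5123 and 5616 in dura mater ECs. Both brain libraries were above both dura mater libraries, at 713 ± 190 against 363 ± 26.9 CPM, 1.96-fold lower in dura mater ECs. The log2 fold change was −0.97 ± 0.38, with an adjusted p of 0.466 in edgeR, which ranged from 0.0986 to 0.799 over the alternatives. Sox7 had 83 and 645 counts in brain and 1389 and 526 in dura mater ECs, and overlapped. Sox18 (ENSMUSG00000046470.5, chr2:181669836-181671640, minus strand) had 133 and 0 counts in brain and 10 and 149 in dura mater ECs. Each tissue thus held 1 library with at most 10 counts and 1 with at least 133, and the log2 fold change of 0.10 ± 3.30 carried no direction: it ranged from −2.42 to 5.14 as single libraries were left out. The summed SoxF level, 861 and 627 CPM in brain and 486 and 385 CPM in dura mater ECs, was mostly Sox17.

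Sox13, a SoxD factor without a transactivation domain of its own, was the most abundant of all members in brain ECs, while Foxp1 was in dura mater ECs. Sox13 (ENSMUSG00000070643.11, chr1:133382303-133424377, minus strand) had 14300 and 19708 counts in brain and 7866 and 9913 in dura mater ECs. The tissues did not overlap, at 1238 ± 356 against 597 ± 14.6 CPM, 2.07-fold lower in dura mater ECs. The log2 fold change was −1.05 ± 0.35, with an adjusted p of 0.428 in edgeR. DESeq2 gave an adjusted p of 0.0466, and edgeR gave 0.0459 without brain library 1, where 6.38% of all genes passed. Sox6, of the same subgroup, had 3 and 689 counts in brain and 0 and 298 in dura mater ECs.

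The remaining Sox genes were lower. Sox4, of the SoxC subgroup of progenitor cells, had 3 and 548 counts in brain and 557 and 1096 in dura mater ECs. Its dura mater libraries were the higher ones, but narrowly, and the tissues overlapped under the scaling of DESeq2. Its log2 fold change was 1.38 ± 2.28, and ranged from 0.33 without brain library 1 to 7.26 without brain library 2. Sox11 had 405 counts in dura mater library 2 and at most 2 elsewhere, and Sox12 had 262 in brain library 1 and at most 4 elsewhere. Sox15 had 1025 and 739 counts against 486 and 799, a log2 fold change of −0.57 ± 1.22. Sox9, a factor of cartilage and astrocytes, had 4 and 8 counts in brain and 18 and 207 in dura mater ECs. Sox10, of Schwann cells and oligodendrocytes, had 1 count in all, and Sox2, of neural stem cells, had 2.

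Most other members rested on 1 library or none. Of the 9 members with at least 64 counts that were not tested, 6 reached them in dura mater library 2 alone: Foxc2, Foxj1, Foxo6, Foxp4, Foxs1 and Sox11. Foxj1, of ciliated cells, had 115 counts there, and Foxs1, known from pericytes, had 92. The 8 ependymal and ciliated cell markers were at 0 in all libraries. Foxm1, which drives mitotic genes, had 543 counts in brain library 1 and 0 in the other 3. Among the tested members, Foxd1 had 323 and 1 counts in brain and 0 and 77 in dura mater ECs, and Foxd2 had 0 in brain and 87 and 55 in dura mater ECs. A further 7 members had between 1 and 7 counts at most, among them Foxl1, Sox2, Sox10 and Sox21. The 22 members listed at 0 were Foxa1, Foxa2, Foxa3, Foxb1, Foxb2, Foxd3, Foxd4, Foxe1, Foxe3, Foxh1, Foxi1, Foxi2, Foxi3, Foxn4, Foxo3, Foxr2, Sox1, Sox3, Sox5, Sox8, Sox14 and Sox30.

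**Figure D5:**
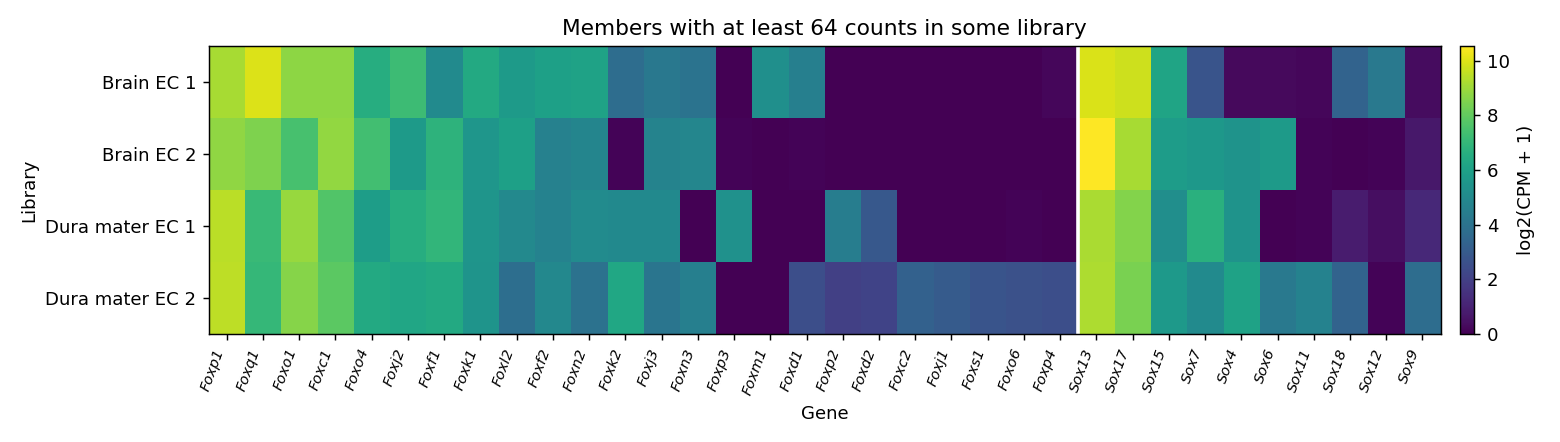
Colour gives log2(CPM + 1) of the 34 members with at least 64 counts in some library, 1 column a gene (Fox genes left of the white line, Sox genes right of it, each ordered by mean level) and 1 row a library. Foxp1, Foxq1, Foxo1, Foxc1, Sox13 and Sox17 are coloured in all 4 rows, and many of the less abundant genes are coloured in 1 row only.

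Genes around these factors were read from lists of partners, regulators and targets. Of 22 partners in endothelium, 20 were tested and 0 passed in edgeR, with 4 higher at an unadjusted p under 0.05 (beside 7.04% of all genes), while DESeq2 called 4 (beside 8.63%) and limma-voom 0. The smallest p-values were those of Tcf7l1, a repressor of Wnt targets (370 and 1083 against 6663 and 12015 counts, adjusted p = 0.130), Mef2c (753 and 562 against 3883 and 4256, adjusted p = 0.194) and Nr2f2, of venous identity (219 and 567 against 2316 and 4224, adjusted p = 0.334). Their median log2 fold change was 0.36 over the 20 tested, beside −0.0069 over all genes.

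Of 24 genes in the PI3K and AKT control of FoxO, 22 were tested and 1 passed. Igf1r, the receptor for insulin-like growth factors, had 27453 and 28245 counts in brain and 3045 and 2570 in dura mater ECs. It was lower in dura mater ECs, at 192 ± 49.2 against 2015 ± 170 CPM, with a log2 fold change of −3.39 ± 0.36 (adjusted p = 0.0248 in edgeR). Sgk1, a kinase that acts on FoxO factors, was next by p, with 1267 and 1005 counts against 3927 and 6614 and an adjusted p of 0.235. At an unadjusted p under 0.05, 1 of the 22 was higher (beside 7.04% of all genes) and 1 lower (beside 2.97%). DESeq2 called 2 of the 22 (beside 8.63%), and the median was −0.09. Of 26 FoxO targets, 22 were tested and 0 passed in edgeR, with 2 higher and 1 lower at an unadjusted p under 0.05 (beside 7.04% and 2.97% of all genes), while DESeq2 called 3 (beside 8.63%) and limma-voom 0. Pik3ip1, an inhibitor of PI3K, had 7076 and 6578 counts in brain and 1111 and 1803 in dura mater ECs (adjusted p = 0.121), and Trib1 994 and 3308 against 9480 and 7960 (adjusted p = 0.466). Esm1, a gene of endothelial tip cells, had 0 in brain and 824 and 1985 in dura mater ECs (adjusted p = 0.172). Positive log2 fold changes were found for 16 and negative ones for 6 of the 22, beside 50.2% negative over all genes. The median was 0.77, beside −0.0069 over all genes. Of the positive ones, Gadd45a, Cited2 and Fbxo32 had at most 2 counts in brain library 2, and Gadd45b had 6 there. Bcl6, Bcl2l11 and Angpt2 had at most 1 in brain library 1, and Esm1 had 0 in both brain libraries.

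Of 23 SoxF targets, 20 were tested and 1 passed: Cldn5, the main tight junction claudin of the blood-brain barrier, which was lower in dura mater ECs. Its counts were 18081 and 17419 in brain and 2857 and 3836 in dura mater ECs, a log2 fold change of −2.52 ± 0.33 (adjusted p = 0.0388 in edgeR). At an unadjusted p under 0.05, 5 of the 20 were higher (beside 7.04% of all genes) and 1 was lower (beside 2.97%), while DESeq2 called 6 (beside 8.63%) and limma-voom 2 (beside 0.856%). Nrp1, a coreceptor for VEGF, lay just outside the threshold in the other direction, with 3576 and 4107 against 17261 and 26517 counts (adjusted p = 0.0544). Of 20 targets of FoxC and FoxF factors, 17 were tested and 1 passed, the chemokine gene Cxcl12. It had 133400 and 89861 counts in brain and 23480 and 27762 in dura mater ECs, a log2 fold change of −2.21 ± 0.27 (adjusted p = 0.0286). At an unadjusted p under 0.05, 3 of the 17 were higher (beside 7.04% of all genes) and 1 lower (beside 2.97%). DESeq2 called 4 of the 17 (beside 8.63%). The medians were 0.35 over the 20 SoxF targets and 0.56 over the 17 FoxC and FoxF targets, beside −0.0069 over all genes. Among 22 other transcription factors of brain endothelium, 18 were tested and 1 passed, Irx3, a homeobox gene with 0 counts in each brain library and with 6462 and 7659 counts in the dura mater libraries (adjusted p = 0.0232). Zic2, a zinc finger factor, had 4775 and 3705 counts in brain and 986 and 1360 in dura mater ECs, with an adjusted p of 0.271. At an unadjusted p under 0.05, 2 of the 18 were higher (beside 7.04% of all genes) and 3 lower (beside 2.97%). DESeq2 called 3 of the 18 (beside 8.63%), and the median was −0.26.

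Of the 20 members named with values, 9 have exons that a gene on the opposite strand overlaps, over 0.369% to 66.1% of their exon length, the highest being Foxq1. The last base at the 3′ end was covered in 1 of them, Sox15, by Mpdu1. Only that base was checked, and not the stretch before it, where reads of this assay fall.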

How the data were processed

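RNA of sorted dura mater and brain ECs was measured by 3′ end sequencing (QuantSeq), with 2 libraries for each tissue. The authors deposited raw counts, 1 table per library, with a symbol and a whole-number count for 23282 entries. Reads were mapped with TopHat and compared with cufflinks per the methods, while the submitters' processing notes list mm10, Bowtie2 and edgeR. The counting step, annotation and use of strand are not given in the sources used here. Groups came from the titles. All entries were fitted with the quasi-likelihood test of edgeR 4.0.16 (R 4.3.3) with TMM scaling, filterByExpr, tissue as the only term, a prior count of 2 with p-values adjusted over 9347 tested genes by Benjamini-Hochberg. The threshold was an adjusted p under 0.05. The SE was obtained from each log2 fold change and its F statistic. CPM uses TMM-adjusted library sizes. The methods' cufflinks test was not used here, since it needs alignments. Alternatives used DESeq2 1.42.0, limma-voom (limma 3.58.1), other scalings and filters, a prior count of 0.5, a replicate block and each library left out. Members with values were the 5 marker genes Foxf2, Foxq1, Foxo1, Sox17 and Sox18, any member past the threshold, and members with at least 64 counts in both libraries of a tissue. Of each list, genes past the threshold were named, with up to 3 more by p. Members and lists were chosen with earlier results of these data known. Libraries of the same number shared no deviation over the genes tested (correlation of deviations −0.0208). This cannot decide whether they shared a mouse or a batch, which the labels do not say. The fits were tested on simulated data. Of the entries, 35 symbols stood on more than 1 line and were left out of lists. Gene positions came from GENCODE M21 (GRCm38), and promoters from RefSeq, which had an entry for 41 of the 63 members. Depth limits precision: the 3-count floor covers counting error only, while SD and SE include the spread between libraries.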

Additional observations from a re-analysis of the deposited data

Results flagged for a closer look

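Antisense or neighbouring transcripts named after members lay outside the comparisons above and carried counts in some libraries. Foxl2os, which overlaps Foxl2 on the opposite strand, had 956 counts in brain library 2, against 1 in brain library 1 and 347 and 78 in dura mater ECs. Foxd2os had 88 counts in dura mater library 2 and 0 in the other libraries. No test was made of either.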

How the results depend on the processing

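Of 276 values of the 20 named members under 14 alternatives, 256 kept direction and side of the threshold, 10 passed it in addition and 10 reversed. One alternative, a prior count of 0.5, leaves the p-values of edgeR unchanged, so it could not move a member across the threshold. DESeq2 without a filter was chosen after seeing the data. Over all genes, edgeR called 57, against 807 with DESeq2, 1259 with DESeq2 without a filter, 305 with the newer dispersion estimate, 326 with no filter, 141 with at least 10 counts in every library and 80 to 740 with single libraries left out. The replicate block gave 224 calls, and Foxq1 a log2 fold change of −2.18 (adjusted p = 0.0173 in edgeR). In the labels, the libraries of a block share only a number. Fox members called numbered 1 instead of 0 with DESeq2, the newer estimate, no filter, the 10-count filter and the block, to 2 with unfiltered DESeq2, and lay at 0 to 1 with single libraries left out. Sox members called were 1 with DESeq2 with and without a filter, and 0 to 1 with single libraries left out. The Fox member that unfiltered DESeq2 called beside Foxq1 was Foxm1, with 543 counts in brain library 1 and 0 in the other libraries. With the 10-count filter, which tests fewer genes, 3 of 4 Sox genes did not overlap instead of 5 of 8, and 6 of 12 Fox genes instead of 9 of 17. Reversals were Sox18 (−0.053 with DESeq2, −0.095 with DESeq2 without a filter, −0.051 with the scaling of DESeq2 in edgeR, −2.42 to 5.14 with single libraries left out), Foxf2 (−1.31 to 0.10), Foxj3 (−0.53 to 0.51), Foxj2 (−0.89 to 0.62) and Foxf1 (−0.18 to 1.63). The cause of these changes was not tested. Leaving out a library leaves a tissue with 1, assumed to vary like the other tissue.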

Other observations

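Beside Foxf1, 1.28 kb before its start and on the opposite strand, Fendrr, a long noncoding RNA, had 572 and 1900 counts in brain and 0 and 42 in the dura mater libraries (log2 fold change −6.00 ± 2.59, adjusted p = 0.466 in edgeR). In the same stretch, Irf8, a factor of myeloid cells, had 5 and 7 counts in brain and 1687 and 1527 in dura mater ECs (adjusted p = 0.147). The 17 leukocyte markers summed to 51.9 and 113 CPM in brain and 28.0 and 15.1 CPM in dura mater ECs. Most of the brain sums came from genes counted mainly in 1 brain library. These were Csf1r (4 and 646 counts), C1qa (436 and 1), C1qb (289 and 4) and C1qc (0 and 797). In dura mater ECs, C1qc had 291 and 2 counts and Mrc1 1 and 172. Ptprc had at most 4 counts in any library. A difference in leukocyte content was not tested. Fendrr and Irf8 were chosen after their values were seen.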
